A study of Mus musculus with 6 samples.

Results

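Iron handling and antioxidant defence were examined across 38 genes of mouse LT-HSCs, long-term hematopoietic stem cells, which self-renew in the bone marrow and found all blood lineages. The genes were listed by name for their function, with earlier results of these data known, and each matched 1 of the 47561 rows of the count tables. All 38 passed the filter on low counts, among 16022 genes tested. RNA was sequenced from LT-HSCs sorted from the bone marrow of 3 control samples, labelled WT, and 3 samples titled Piezo1 KO (knockout), Piezo1 being the gene of a calcium channel opened by mechanical force. Groups follow the titles, since the genotype field gives Piezo2 and Piezo3 for KO replicates 2 and 3. The labels give no strain, age, Cre driver or deleted exon, and do not say whether each sample is a separate mouse. The spread behind every p-value is therefore that of these samples and may be technical.

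NRF2, the product of Nfe2l2, is a transcription factor that enters the nucleus under oxidative or electrophilic stress, pairs with small MAF proteins and binds antioxidant response elements in front of detoxifying genes. KEAP1 marks NRF2 for degradation in unstressed cells, and BACH1, a repressor that heme inactivates, occupies many of the same elements. Glutathione, thioredoxin and catalase systems remove peroxides, while ferritin, transferrin receptor and the iron regulatory proteins keep free iron, which would turn peroxide into hydroxyl radicals, under control. Blood stem cells are known for low levels of reactive oxygen species and lose self-renewal when these rise.

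The libraries held between 59435258 and 64653956 counts, and the 38 genes together took 1.33% to 1.46% of them in control and 1.16% to 1.34% in KO libraries. Piezo1 itself had 17.0, 7.02 and 24.3 CPM (counts for every 1000000 of the library total after TMM scaling, which corrects for RNA composition) in control and 4.28, 7.99 and 9.46 CPM in KO libraries, so that control replicate 2 lay below KO replicates 2 and 3. All 14 genes of a fixed list for blood stem cells and progenitors were counted in every library. Their summed level ranged from 1140 to 1550 CPM over controls, against 1120 to 1270 CPM over KO libraries. The list includes Cd34, Flt3 and Cd48, which mark progenitors rather than LT-HSCs, so neither detection nor this sum measures LT-HSC identity. Within that sum single genes went opposite ways: Ly6a, which encodes the sorting antigen Sca-1, averaged 326.7 CPM in control and 122.8 CPM in KO without overlap, and Procr averaged 48.7 and 13.8 CPM, whereas Kit averaged 185 and 319.9 CPM without overlap. Of the markers of other cells, 12 megakaryocyte and platelet genes summed to 998 to 1300 CPM in control and 1960 to 2870 CPM in KO libraries, with Gp6 at 0 throughout. The 14 erythroid genes summed to 5280 to 11100 CPM in control and 9630 to 29400 CPM in KO libraries, highest in KO replicate 1, and none was at 0 throughout. The 4 globin genes made this difference, at 0.0274% to 0.352% of counts in control and 0.741% to 2.43% in KO libraries. The carbonic anhydrases Car1 and Car2 were lower in KO, averaging 2593 and 2614 CPM in control against 1116 and 1633 CPM, and of the 14 genes 9 had positive and 5 negative log2 fold changes. The 11 granulocyte genes summed to 177, 223 and 11900 CPM in control replicates 1, 2 and 3 and to 120 to 1150 CPM in KO libraries. The 14 monocyte and macrophage genes summed to 550 to 1450 CPM in control and 329 to 589 CPM in KO libraries. Most of this sum was Lyz2, which averaged 725.8 CPM in control and 403 CPM in KO. C1qa, C1qb and C1qc were instead highest in control replicate 2, at 13.8, 21.3 and 13.5 CPM. Mrc1 averaged 0.116 CPM in control and 4.35 CPM in KO without overlap. Of the 12 tested genes of this list, 4 had positive and 8 negative log2 fold changes. The 8 T and NK cell genes summed to 131 to 209 CPM in control and 247 to 263 CPM in KO libraries, nearly all of it Nkg7, with Cd8a at 0 throughout. B cell and stromal marker sums stayed at or under 89.1 CPM in every library. The part that other cells have in the results that follow was not tested, and in bulk RNA fewer cells of a type and less RNA per cell cannot be told apart.

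None of the 38 genes passed an adjusted p under 0.05 in edgeR's quasi-likelihood test, which called 0 of the 16022 genes (0%), and the lowest adjusted p was 0.172. At an unadjusted edgeR p under 0.05, 7 of the 38 were lower in KO, where the share over all genes was 5.59%, and 4 were higher, where it was 5.44%. Both directions together made 28.9% of the 38, beside 11.0% of all genes tested. The median over the 38, as log2 of KO over control, was -0.12, with 26 negative and 12 positive, and that of all genes tested was 0.03. DESeq2, run on the same genes, called 7 of the 38 at an adjusted p under 0.05, beside 3.55% of all genes. These were Nfe2l2, Hmox2, Cat, Txn2 and Ftl1 on the lower side, where 1.92% of all genes were called, and Bach1 and Txnip on the higher side, where 1.64% were. In 12 of the 38 the 3 KO libraries lay wholly above or wholly below the 3 control libraries, a pattern seen in 19.5% of all genes. Of these, 8 lay below, beside 8.76% of all genes, and 4 above, beside 10.7%. The 12 comprise all 11 with an unadjusted p under 0.05 and Sod2. The count of the 38 that were lower at an unadjusted p under 0.05 was 4 without control replicate 1 and also 4 without KO replicate 3. Over all genes that count also varied with the library left out, over a range given with the processing alternatives.

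**Figure D1:**
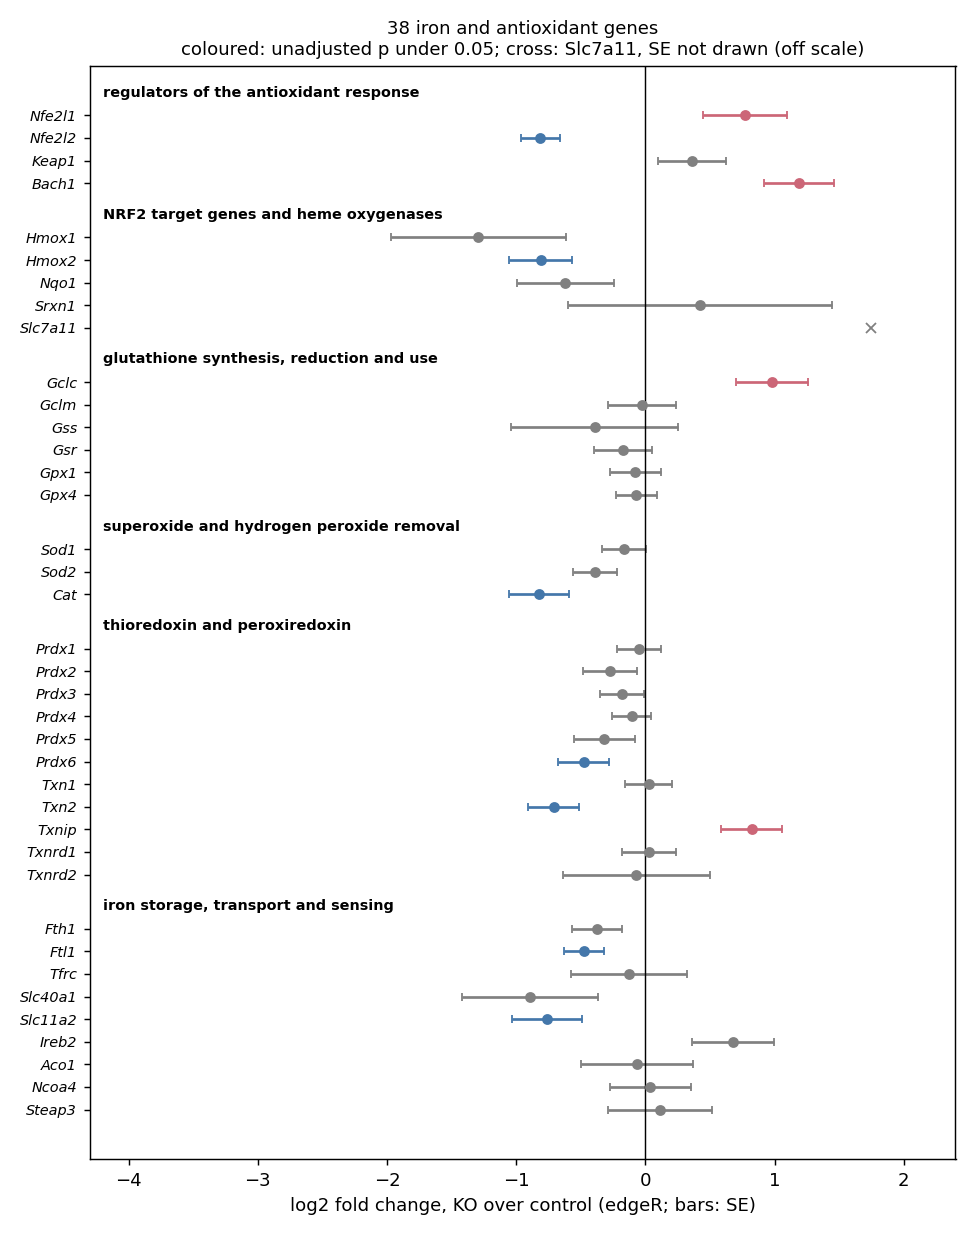
Log2 fold change of KO over control (x axis, edgeR, bars show the SE) for each of the 38 genes, in 6 groups by role; blue marks genes lower and red genes higher in KO at an unadjusted p under 0.05, and grey the rest. Slc7a11 is drawn as a cross without its SE bar, which was off scale, and its fold change is not read in the text. Nfe2l2 at -0.81 and Bach1 at 1.19 stand on opposite sides of 0, and most glutathione and peroxiredoxin genes lie near 0.

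Of the 4 regulators, 3 had groups that did not overlap, a pattern seen in 19.5% of all genes tested. Nfe2l2 stood at 140, 145 and 138 CPM in controls and at 73.5, 81.0 and 86.2 CPM in KO libraries. The control values lay within a few CPM of each other and above every KO value. Its log2 fold change was -0.81 (SE 0.15, 95% interval -1.17 to -0.46), a 1.76-fold lower level, with an edgeR adjusted p = 0.255 and a DESeq2 adjusted p = 0.00035. Bach1 went the other way, at 14.2, 19.2 and 23.8 CPM in controls against 47.2, 43.6 and 39.4 CPM in KO libraries. Each KO library thus held more of this repressor's transcript than any control library. The log2 fold change of Bach1 was 1.19 (SE 0.27, 95% interval 0.56 to 1.82), or 2.28-fold, with an edgeR adjusted p = 0.255 and a DESeq2 adjusted p = 0.0105.

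Nfe2l1 encodes NRF1, a relative of NRF2 that is held at the endoplasmic reticulum and raises proteasome genes when the proteasome is impaired. It was counted at 10.5, 16.0 and 14.7 CPM across controls and 24.9, 17.8 and 27.6 CPM across KO libraries. KO replicate 2 lay just above the highest control library, and the unadjusted edgeR p of 0.0479 lost the 0.05 mark in 9 of 15 alternatives. Keap1, the adaptor that delivers NRF2 to its ubiquitin ligase, had 17.6, 23.1 and 17.9 CPM in the control libraries, compared with 23.0, 25.8 and 26.5 CPM in the KO libraries. Control replicate 2 exceeded KO replicate 1, so the groups overlapped, and the log2 fold change was 0.36 (SE 0.26). It was -0.068 once trends of fold change with GC content and transcript length had been taken out.

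Ratios of counts within a library do not depend on how libraries are scaled, and these pairs were chosen after the values were seen. For each Bach1 count there were 9.86, 7.56 and 5.81 Nfe2l2 counts in the control libraries and 1.56, 1.86 and 2.19 in the KO libraries. The lowest control ratio was well above the highest KO ratio, which followed from the levels of the single genes. Nfe2l2 over Keap1 was 7.93, 6.28 and 7.73 in control and 3.20, 3.14 and 3.25 in KO, so the KO libraries were nearly equal to each other. Nfe2l1 over Nfe2l2 was 0.0751, 0.110 and 0.107 in control and 0.338, 0.220 and 0.321 in KO. In this pair and in Nfe2l2 with Bach1, each gene already separated the groups, in opposite directions. Those ratios had to separate and add no support of their own. In Nfe2l2 over Keap1, Nfe2l2 alone already separated the groups. All of these are ratios of raw counts, not corrected for transcript length, and compare libraries, not the levels of the paired genes.

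**Figure D2:**
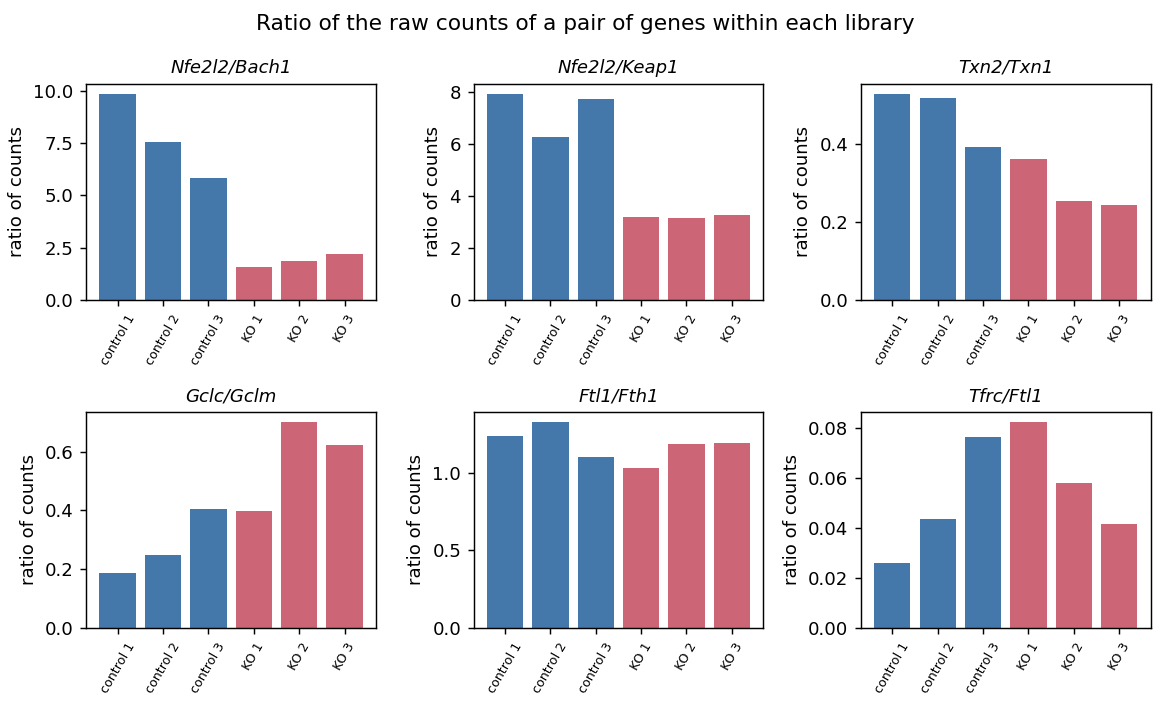
Ratio of raw counts of a pair of genes (y axis) in each of the 6 libraries (x axis; blue control, red KO). Nfe2l2/Bach1 runs from 5.81 to 9.86 in control and from 1.56 to 2.19 in KO libraries, whereas Ftl1/Fth1 and Tfrc/Ftl1 overlap between the groups. The separation of Nfe2l2/Bach1 follows from the levels of the paired genes.

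NRF2 and BACH1 meet at the antioxidant response element, whose core letters are TGACNNNGC. A search of both strands found this core in 7 of the 50 RefSeq promoter windows (GRCm38.p6, 250 bases before to 50 after a transcript start) that matched 32 of the 38 genes, or 14.0% of them. Over all 32851 windows of the same length it was found in 4071, or 12.4%, so the windows of these genes held it about as often as promoters in general. The 7 windows belong to Nfe2l2, Srxn1, Gclm, Prdx1, Txnrd1, Ncoa4 and Sod1, and Txnrd1 and Ncoa4 each held it in 1 of 3 windows. Hmox1, Gclc, Gsr, Prdx6, Slc40a1 and Slc11a2 had no window and were not searched. The 250 bases before the start are shown for Nfe2l2, whose own promoter carries the core, and for Gclm, Prdx1 and Txnrd1, which are textbook targets of NRF2. Capitals mark the core or, in Gclm, Prdx1 and Txnrd1, its reverse complement GCNNNGTCA, read on the strand of the gene.
Nfe2l2, chr2:75704664-75704913, minus strand: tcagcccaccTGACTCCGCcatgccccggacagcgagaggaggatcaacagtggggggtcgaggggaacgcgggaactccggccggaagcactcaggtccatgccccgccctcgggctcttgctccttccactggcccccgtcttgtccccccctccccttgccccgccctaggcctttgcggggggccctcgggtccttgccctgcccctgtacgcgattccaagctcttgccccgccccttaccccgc
Gclm, chr3:122245307-122245556, plus strand: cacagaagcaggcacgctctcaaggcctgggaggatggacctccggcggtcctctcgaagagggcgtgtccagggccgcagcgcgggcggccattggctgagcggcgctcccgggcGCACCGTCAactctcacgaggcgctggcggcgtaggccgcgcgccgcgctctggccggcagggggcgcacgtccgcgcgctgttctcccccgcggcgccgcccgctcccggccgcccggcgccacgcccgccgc
Prdx1, chr4:116685349-116685598, plus strand: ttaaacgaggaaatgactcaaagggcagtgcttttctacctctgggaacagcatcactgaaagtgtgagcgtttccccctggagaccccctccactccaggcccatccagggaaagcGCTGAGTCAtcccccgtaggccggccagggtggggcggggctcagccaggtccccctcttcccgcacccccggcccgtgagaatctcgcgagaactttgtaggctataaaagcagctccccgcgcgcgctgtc
Txnrd1, chr10:82858956-82859205, plus strand: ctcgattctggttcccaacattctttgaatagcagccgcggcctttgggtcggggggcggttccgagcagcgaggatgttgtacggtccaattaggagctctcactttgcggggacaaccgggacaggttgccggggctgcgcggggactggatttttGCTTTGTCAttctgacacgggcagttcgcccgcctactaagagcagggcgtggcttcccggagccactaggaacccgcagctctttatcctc
The core begins 240 bases before the start in Nfe2l2, 134 in Gclm, 133 in Prdx1 and 92 in Txnrd1. A match is a description of letters and not of binding.

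Besides Nfe2l2, the 6 genes with this core in a searched window had groups that overlapped. Gclm, the modifier subunit of glutamate-cysteine ligase, stood at 142, 90.1 and 105 CPM in controls and at 145, 85.0 and 101 CPM in KO libraries. Both groups covered nearly the same range, and the log2 fold change was -0.03 with a 95% interval of -0.65 to 0.59. Prdx1, a cytosolic peroxiredoxin, had a log2 fold change of -0.05 (95% interval -0.45 to 0.35). Txnrd1, cytosolic thioredoxin reductase, had a log2 fold change of 0.03 (95% interval -0.46 to 0.52). Srxn1, the sulfiredoxin that revives overoxidised peroxiredoxins, was too variable to compare: control libraries held 0.545, 17.1 and 5.46 CPM and KO libraries 7.23, 7.66 and 16.1 CPM. Sod1 and Ncoa4 had small log2 fold changes, -0.16 with an SE of 0.17 and 0.04 with an SE of 0.32. None of these 6 genes had an unadjusted edgeR p under 0.05, which does not show that they are equal in the groups, and their intervals include changes of either sign.

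Among the other NRF2 and heme genes, Hmox2, the constitutive heme oxygenase, was counted at 185, 208 and 147 CPM across controls and 111, 125 and 72.8 CPM across KO libraries. The highest KO library lay below the lowest control library. Its log2 fold change was -0.81 (SE 0.24, 95% interval -1.38 to -0.24), with an edgeR adjusted p = 0.320 and a DESeq2 adjusted p = 0.0334. In GENCODE M21, 892 exonic bases of Hmox2 overlap Cdip1 on the opposite strand, and without a stated strand the reads of the 2 genes cannot be told apart there. Hmox1, the inducible heme oxygenase that BACH1 represses, had 7.94, 31.9 and 8.47 CPM in the control libraries, compared with 10.03, 4.09 and 5.58 CPM in the KO libraries. Control replicate 2 alone set the group apart: the log2 fold change of -1.29 (SE 0.68) was -0.34 without it. Nqo1, a quinone reductase, stood at 36.4, 24.2 and 30.4 CPM in controls and at 28.8, 18.7 and 11.8 CPM in KO libraries, with overlapping groups and a log2 fold change of -0.62 (SE 0.38). Slc7a11, the cystine importer, was barely counted, with 0 counts in control replicates 2 and 3 and KO replicate 2 and at most 1.80 CPM elsewhere. A count of 0 allows up to 3 counts, between 0.0440 and 0.0539 CPM over the libraries. The libraries of each group spread far wider than that, so no fold is given.

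Glutathione is made in a pair of steps, of which the first is rate-limiting. Gclc, the catalytic subunit of glutamate-cysteine ligase, was counted at 26.5, 22.3 and 42.5 CPM across controls and 57.6, 59.5 and 62.6 CPM across KO libraries. The KO libraries lay close together and above all control libraries. The log2 fold change was 0.98 (SE 0.28, 95% interval 0.33 to 1.63), or 1.97-fold, with an edgeR adjusted p = 0.306 and a DESeq2 adjusted p = 0.0567. The counts of Gclc per Gclm count were 0.187, 0.247 and 0.405 in control and 0.397, 0.700 and 0.621 in KO, where control replicate 3 lay just above KO replicate 1. Gclc is the 1 of 6 glutathione genes with an unadjusted p under 0.05, or 16.7% beside 11.0% of all genes. The other 5 had negative log2 fold changes.

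Gpx1 and Gpx4, the glutathione peroxidases of hydrogen peroxide and of lipid peroxides, had 1636 to 2547 and 468 to 631 CPM in control and 1749 to 2289 and 509 to 538 CPM in KO. Their log2 fold changes were -0.08 (95% interval -0.54 to 0.39) and -0.07 (95% interval -0.45 to 0.30). Gpx4 shares sequence with Gpx4-ps2, a separate row with 149 to 208 CPM, and adding that row's counts to Gpx4 gave -0.065. Gsr, which regenerates reduced glutathione, had a log2 fold change of -0.17 (SE 0.23). Gss, glutathione synthetase, ranged from 6.24 to 35.2 CPM in control and from 11.0 to 26.7 CPM in KO libraries. Control replicate 3 was its lowest library, and Gss exons overlap Acss2 and a pair of antisense transcripts.

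Of the enzymes that remove superoxide and hydrogen peroxide, catalase was lower in KO. Cat had 158, 156 and 135 CPM in the control libraries, compared with 111, 63.8 and 78.8 CPM in the KO libraries. No KO library reached the lowest control library. The log2 fold change was -0.82 (SE 0.23, 95% interval -1.37 to -0.28), a 1.77-fold lower level, with an edgeR adjusted p = 0.301 and a DESeq2 adjusted p = 0.0279. Catalase is abundant in red cells, whose marker genes lay on both sides (globin higher, Car1 and Car2 lower), and their part in the level of Cat was not tested. Sod2, the mitochondrial superoxide dismutase, stood at 278, 215 and 298 CPM in controls and at 210, 192 and 202 CPM in KO libraries. The groups did not overlap by a margin of a few CPM, and the log2 fold change was -0.39 (SE 0.17) with an unadjusted edgeR p of 0.0571.

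Thioredoxins pass electrons to peroxiredoxins in 2 compartments. Txn2, mitochondrial thioredoxin, was counted at 497, 367 and 423 CPM across controls and 316, 248 and 222 CPM across KO libraries. Every KO library lay below every control library. The log2 fold change was -0.71 (SE 0.20, 95% interval -1.17 to -0.25), with an edgeR adjusted p = 0.297 and a DESeq2 adjusted p = 0.0130. Txn1, cytosolic thioredoxin, had 940, 708 and 1073 CPM in the control libraries, compared with 873, 982 and 914 CPM in the KO libraries, with a log2 fold change of 0.03 (95% interval -0.40 to 0.45). Txn2 per Txn1 count was 0.529, 0.518 and 0.394 in control and 0.362, 0.253 and 0.243 in KO. These ratios did not overlap between the groups, but Txn2 alone already separated them, so the ratios are not separate support.

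Txnip, the thioredoxin-interacting protein that binds reduced thioredoxin and restrains glucose uptake, stood at 241, 357 and 207 CPM in controls and at 403, 500 and 521 CPM in KO libraries. The lowest KO library lay above control replicate 2, the highest control. The log2 fold change was 0.82 (SE 0.24, 95% interval 0.27 to 1.38), with an edgeR adjusted p = 0.311 and a DESeq2 adjusted p = 0.0188. Exons of Txnip overlap the antisense gene Gm15441 over 606 bases, where reads cannot be assigned without the strand. The reductases did not separate: Txnrd2, of mitochondria, ranged from 9.49 to 47.0 CPM in control and from 16.8 to 35.3 CPM in KO.

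The 6 peroxiredoxins, which reduce peroxides with electrons from thioredoxin or, for Prdx6, from glutathione, all had negative log2 fold changes, between -0.48 and -0.05. Prdx6 was counted at 844, 822 and 959 CPM across controls and 780, 491 and 615 CPM across KO libraries. KO replicate 1 came close to the control range, and the log2 fold change of -0.48 (SE 0.20) had an unadjusted edgeR p of 0.0448, which was 0.05 or more in 5 of 15 alternatives. Prdx2, a major antioxidant protein of red cells, had 966, 908 and 1258 CPM in the control libraries, compared with 1067, 828 and 694 CPM in the KO libraries, with overlapping groups. Prdx3 of mitochondria, Prdx4 of the endoplasmic reticulum and Prdx5 had log2 fold changes of -0.18, -0.11 and -0.32, with SEs of 0.17, 0.15 and 0.24. With the length and GC trends removed, those of Prdx1 and Prdx4 were 0.10 and 0.12.

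**Figure D3:**
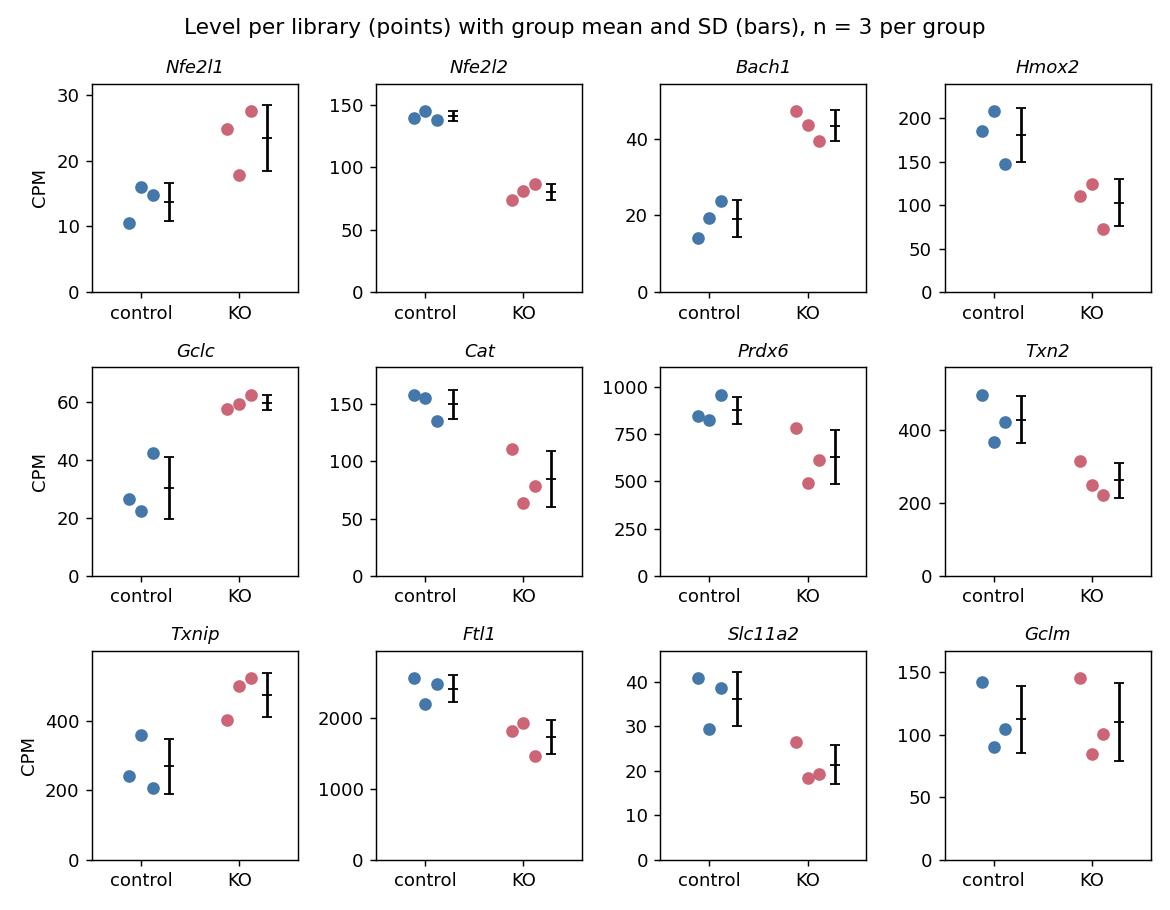
Level in CPM (y axis, from 0) in each library for the 11 genes with an unadjusted p under 0.05 and, for contrast, Gclm; points are libraries and the black bars the group mean and SD (n = 3). In all 11 genes the control and KO points do not overlap, as for Nfe2l2 (138 to 145 against 73.5 to 86.2 CPM), while those of Gclm cover the same range.

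For iron storage, Ftl1, the ferritin light chain, stood at 2564, 2200 and 2486 CPM in controls and at 1818, 1931 and 1466 CPM in KO libraries. No KO library reached the control range. The log2 fold change was -0.48 (SE 0.15, 95% interval -0.84 to -0.11), a 1.39-fold lower level, with an edgeR adjusted p = 0.360 and a DESeq2 adjusted p = 0.0373. The unadjusted p of Ftl1 was 0.05 or more in 3 of 15 alternatives, with the replicate block and without control replicate 1 or KO replicate 3, and at most 0.0654. Exons of Ftl1 overlap Gm10252 on the opposite strand over 355 bases and the miRNA gene Gm22133 on the same strand over 109 bases. Copies of Ftl1 took reads as well: Ftl1-ps1 was counted at 148, 118 and 142 CPM across controls and 102, 108 and 71.9 CPM across KO libraries, and with the counts of 2 pseudogene rows added to Ftl1 the log2 fold change was -0.48. Fth1, the heavy chain with the ferroxidase site, had 2073, 1661 and 2261 CPM in the control libraries, compared with 1760, 1634 and 1229 CPM in the KO libraries. Control replicate 2 lay within the KO range, and the log2 fold change was -0.37 (SE 0.19). Ftl1 per Fth1 count was 1.24, 1.32 and 1.10 in control and 1.03, 1.18 and 1.19 in KO, so the balance of the 2 chains overlapped between the groups.

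Among iron transporters, Slc11a2, the divalent metal transporter DMT1 that moves iron out of endosomes, stood at 40.7, 29.3 and 38.6 CPM in controls and at 26.4, 18.3 and 19.2 CPM in KO libraries. The groups did not overlap, and the log2 fold change was -0.76 (SE 0.27, 95% interval -1.40 to -0.13) with an edgeR adjusted p = 0.382. Its unadjusted p was 0.05 or more in 4 of 15 alternatives, those without control replicate 1 or 3 or KO replicate 2 or 3, and reached at most 0.0806. Exons of Slc11a2 overlap Gm5475 on the opposite strand over 402 bases, where reads cannot be assigned without the strand. Slc40a1, the iron exporter ferroportin, was counted at 42.7, 18.8 and 41.5 CPM across controls and 31.8, 14.5 and 9.35 CPM across KO libraries. Control replicate 2 fell among the KO libraries, and the log2 fold change of -0.89 (SE 0.53) was -1.55 without KO replicate 1. Tfrc, the transferrin receptor of iron uptake, had 67.0, 95.3 and 190 CPM in the control libraries, compared with 149, 112 and 60.9 CPM in the KO libraries, and its log2 fold change of -0.13 (SE 0.45) was 0.40 without control replicate 3. Steap3, the endosomal ferrireductase, ranged from 14.1 to 33.7 CPM in control and from 20.4 to 37.8 CPM in KO libraries.

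None of the 3 genes of iron sensing and ferritin turnover had an unadjusted edgeR p under 0.05. Ireb2, the iron regulatory protein IRP2, which controls ferritin and transferrin receptor messages, stood at 30.0, 46.4 and 66.7 CPM in controls and at 69.6, 65.9 and 93.3 CPM in KO libraries. KO replicate 2 lay just below control replicate 3, and the log2 fold change of 0.68 (SE 0.32) had an unadjusted edgeR p of 0.0682, with a p under 0.05 in 5 of 15 alternatives. Aco1, the iron regulatory protein IRP1 and cytosolic aconitase, was counted at 12.2, 34.5 and 15.9 CPM across controls and 22.2, 21.5 and 16.2 CPM across KO libraries, with a log2 fold change of -0.06 (SE 0.43). Ncoa4, the receptor that takes ferritin to the lysosome, had 142, 123 and 58.6 CPM in the control libraries, compared with 107, 108 and 118 CPM in the KO libraries, where only control replicate 3 stood low.

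**Figure D4:**
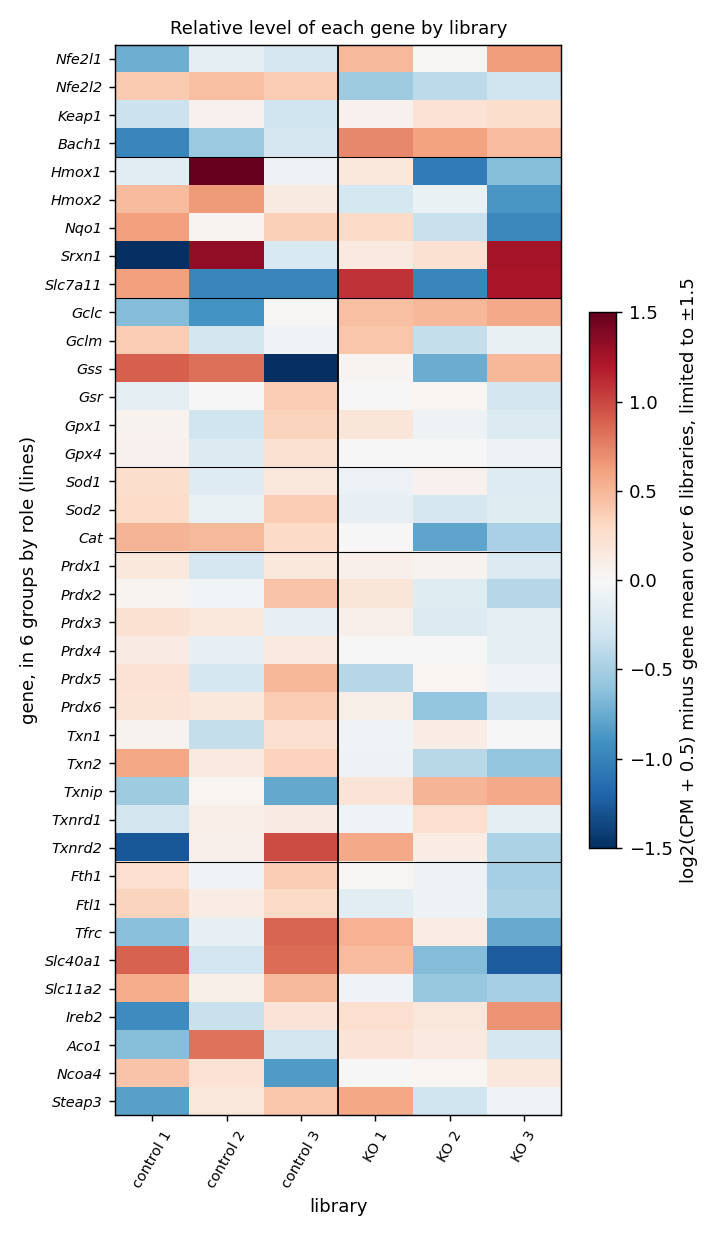
Level of each of the 38 genes (rows, in 6 groups by role) in the 6 libraries (columns), as log2(CPM + 0.5) minus the gene's mean over the libraries, colour limited to ±1.5. Nfe2l2 is red in control and blue in KO libraries and Bach1 the reverse, while Hmox1, Srxn1, Gss and Txnrd2 vary as much within a group as between groups.

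A wider list of 102 genes of the same pathways gave 90 that could be tested, of which 8 were lower and 2 higher in KO at an unadjusted edgeR p under 0.05, or 11.1% beside 11.0% of all genes. Their median log2 fold change was -0.23, with 57 negative and 33 positive, and none had an edgeR adjusted p under 0.05 (lowest 0.302). In 17 of the 90 the KO libraries lay wholly below the control libraries, beside 8.76% of all genes. In 3 they lay wholly above, beside 10.7% of all genes. At an unadjusted edgeR p under 0.05, 3 of 21 tested genes of glutathione transfer and glutaredoxins were lower and 0 higher. That is 14.3%, near the 11.0% of all genes, so the genes named are a description. Mgst1, a microsomal glutathione transferase, averaged 26.7 ± 0.975 CPM in control and 14.0 ± 1.74 CPM in KO (SD, n = 3 each), and Glrx, glutaredoxin, and Gsta4, a glutathione transferase, were lower by log2 fold changes of -0.61 and -0.82, with SEs of 0.23 and 0.31. Of 14 thioredoxin and methionine sulfoxide genes, 12 had negative and 2 positive log2 fold changes. Only Txnrd3 had an unadjusted edgeR p under 0.05, with a log2 fold change of -1.02 (SE 0.33). That share, 7.14%, lies under the 11.0% of all genes, so Txnrd3 is named as a description too.

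The shares of the next 4 lists with an unadjusted p under 0.05 were 12.5%, 12.5%, 9.09% and 11.1%, close to the 11.0% of all genes, so the genes named from them are a description. Among 16 tested genes of NADPH supply and further NRF2 targets, 9 had negative and 7 positive log2 fold changes. G6pdx and Taldo1 of the pentose phosphate pathway were lower at an unadjusted p under 0.05, and none was higher at it. The log2 fold changes were -0.59 for G6pdx (SE 0.23) and -0.47 for Taldo1 (SE 0.16). Of 8 tested relatives of NRF2, small MAF factors and genes tied to the KEAP1 ligase, 6 had positive and 2 negative log2 fold changes. Only Bach2, the lymphoid relative of Bach1, was higher at an unadjusted p under 0.05. It averaged 7.95 ± 0.507 CPM in control and 15.2 ± 3.94 CPM in KO (SD, n = 3 each). In the list of 22 tested iron uptake, iron-sulfur and iron regulation genes, Fbxl5, the iron-sensing subunit of the ligase that degrades IRP2, was lower at 77.5, 62.8 and 55.1 CPM in controls against 46.2, 37.6 and 34.9 CPM in KO libraries. Slc25a28, a mitochondrial iron importer, was higher at a log2 fold change of 1.10 (SE 0.46) with overlapping groups. Of 9 ferroptosis genes, 7 had negative and 2 positive log2 fold changes. Only Vdac2, a mitochondrial outer membrane channel, was lower at an unadjusted p under 0.05, with a log2 fold change of -0.54 (SE 0.18).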

How the data were processed

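LT-HSC RNA was extracted with TRIZOL and made into TruSeq RNA libraries, per the labels' protocols. The authors deposited raw counts of reads for each gene as whole numbers, 1 table per library. Aligner HISAT2 2.1, counter featureCounts 1.6.4, trimmer cutadapt 1.16.5 and the build mm10 appear in the submitters' processing notes, without settings. Strand and the treatment of reads with several matches are not given in the sources used here. Of the rows, 2046 have names starting with STRG, as an assembler writes them, and such counts can shift reads between overlapping genes.

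Counts were filtered with filterByExpr, scaled by TMM (trimmed mean of M values), then tested in R 4.3.3 with edgeR 4.0.16 (quasi-likelihood F test, 6 libraries, two-sided), with Benjamini-Hochberg adjustment over all 16022 genes and a threshold of 0.05. The SE is the log2 fold change divided by the square root of F, and the 95% interval follows from it. The common biological coefficient of variation was 0.755. Every pair of libraries differed by more than sampling noise (chi-square per gene at least 119). A count of 0 was read as up to 3 counts, which covers counting error only. Exon overlaps were taken from GENCODE M21 and promoters from RefSeq GRCm38.p6, builds that match mm10, although the authors' gene models may differ. The edgeR steps were also run on simulated counts with known fold changes. Their recovery is not reported here, so nothing about the power of the test is drawn from it.

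The 38 genes, their roles and the wider lists were chosen with earlier results of these data known. The named-gene rule gave library values to genes with an unadjusted p under 0.05, a DESeq2 call or no overlap, and to lead genes of each role, and named up to 3 of each wider list by smallest p. Alternatives were 2 other scalings, 2 other filters, DESeq2 1.42.0, limma-voom (limma 3.58.1), the replicate number as a block and each library left out. Removal of length and GC trends and summing of pseudogene counts were added after seeing the data.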

Additional observations from a re-analysis of the deposited data

How the results depend on the processing

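Of 569 values of the 38 genes over the 15 alternatives, 531 kept their direction. Nfe2l2, Bach1, Hmox2, Gclc, Cat, Txn2 and Txnip kept an unadjusted p under 0.05 in all 15. The alternatives reuse the same libraries, and how many of all genes keep such a p was not counted, so this is not separate support. DESeq2 called 530 genes, among them 7 of the 38, where edgeR called 0 and 0, and with a filter of 5 CPM in 3 libraries edgeR called 1 gene, none of the 38. With library totals only, the median log2 fold change of the 38 genes was -0.057. With 1 library left out, between 0 and 1 genes were called, 562 to 1339 genes had an unadjusted p under 0.05 on the higher and 573 to 1299 on the lower side, 4 to 10 of the 38 genes were lower, and their median was -0.22 to -0.067. The median was -0.20 without control replicate 2, -0.22 without KO replicate 1 and -0.067 without KO replicate 3. The cause of these shifts was not tested. Directions turned only for genes with an unadjusted p over 0.05: with library totals only, Gclm (0.026) and Prdx1 (0.0057); with limma-voom, Txnrd2 (0.16) and Aco1 (0.035); with length and GC trends removed, Keap1 (-0.068), Gsr (0.018), Gpx1 (0.052), Prdx1 (0.10), Prdx4 (0.12), Txnrd1 (-0.16), Ncoa4 (-0.19) and Steap3 (-0.14). With 1 library left out, the log2 fold changes spanned 0 for Srxn1 (-0.13 to 1.77), Gclm (-0.30 to 0.18), Gpx1 (-0.25 to 0.088), Gpx4 (-0.20 to 0.031), Prdx1 (-0.20 to 0.018), Txn1 (-0.15 to 0.16), Txnrd1 (-0.10 to 0.10), Txnrd2 (-0.48 to 0.59), Tfrc (-0.45 to 0.40), Aco1 (-0.34 to 0.49), Ncoa4 (-0.26 to 0.29) and Steap3 (-0.20 to 0.37).

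With the replicate number as a block, an unadjusted p under 0.05 was found for 4 of the 38 genes on the higher and 5 on the lower side. Over all 16022 genes it was found for 835 on the higher and 762 on the lower side. Of the 38 genes 0 were called, and the directions of Txnrd2 (0.13) and Aco1 (0.068) turned. The titles link same-numbered libraries by number alone, and whether they shared a batch is not known. The correlations of their deviations were only 0.016 to 0.038, although each library correlated best with its own number. Slc7a11 could not be tested under the filter of 5 CPM. Srxn1 spread so widely between libraries of a group that its 95% interval ran from -1.98 to 2.82 on the log2 scale. Slc7a11 had 61 counts in control replicate 1 and 95 and 112 in KO replicates 1 and 3, beside 0 in the other libraries. That spread is far wider than the 3 counts that a 0 allows, and its cause was not tested.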
